A study of Mus musculus with 20 samples.

Results

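RNA-Seq of DNMT3a-KO donor T cells that carried both CD4 and CD8 (double-positive, DP) was compared with RNA-Seq of WT CD8+ donor T cells. The comparison took the 4 libraries labelled KO DP (replicates 1, 2, 3 and 4) and the 4 libraries labelled WT CD8 (replicates 2, 3, 5 and 6), which are 8 of the 20 libraries in the series. The table lists 17101 genes, of which 12362 were tested because their normalized counts averaged 10 or more in these 8 libraries. The study asked how donor T cells without DNMT3a respond to alloantigen after blood and marrow transplantation in mice.

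All 8 libraries were made from sorted splenic donor T cells on day 10 after transplantation. Per the labels, donors were 6 to 12 weeks old and recipients 8 to 12 weeks old, and the methods of the study give a narrower donor age. The study transplanted cells of C57BL/6J (B6) donors into irradiated B6D2F1 (F1) recipients. KO donors were DNMT3a KO (CD4-Cre 2loxP), so that Cre was driven by the *Cd4* promoter and acted in both CD4+ and CD8+ T cells, which pass through a stage with *Cd4* transcription in the thymus. WT donors were DNMT3a WT littermates. The 2 groups therefore differ in genotype and in the sorted subset at once, and what belongs to each cannot be told apart from these 8 libraries. DP cells of WT donors are not part of these data as analysed here. The 4 KO CD8 libraries from the same series are set beside the KO DP libraries where they help to read a value. They were compared with the same WT CD8 libraries, so the 2 comparisons are not independent.

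DNMT3A places new methyl groups on CpG sites of DNA and takes part in fixing the expression pattern of T cells as they differentiate. CD4 and CD8 are the coreceptors with which T cells bind MHC class II and class I molecules. Developing T cells carry both in the thymus and then silence either, under the control of ThPOK (*Zbtb7b*) in the CD4 lineage and RUNX3 in the CD8 lineage, and mature T cells with both are uncommon in the periphery.

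Values are normalized counts, that is, read counts that the authors divided by a size factor for each library. They are given in the order of the replicate numbers. Differences are KO DP minus WT CD8 on the log2(normalized count + 1) scale with the standard error of the fit, and they compare 1 gene between groups, not genes with each other. A gene is said to rise or fall only where the adjusted p of limma was under 0.05. Over all genes tested 7.03% rose and 9.5% fell, and without KO DP replicate 3 15.2% rose and 16.9% fell. The counts for every list of genes stand beside these shares. Reads on genes numbered 41439155 to 46966318 per KO DP library and 42563528 to 46771383 per WT CD8 library. KO DP replicate 3 stood apart. It had reads on 11783 genes, against 13203 to 14198 in the other KO DP libraries and 14465 to 14677 in the WT CD8 libraries, and 906 of the genes tested read 3 or less in it, against 145 to 403 and 37 to 59. The median SD over genes on the log2 scale was 0.402 in KO DP libraries, 0.255 without replicate 3, and 0.100 in WT CD8 libraries. In bulk RNA, a smaller share of cells that express a gene cannot be told apart from less RNA per cell.

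Both coreceptors were transcribed in the KO DP cells, *Cd4* at part of the level of CD4+ cells and the CD8 genes near the level of KO CD8 cells. *Cd4* (GRCm38, chromosome 6, 124864693 to 124888247) read 15351, 8758, 12911 and 11473 in KO DP libraries and 12.2, 79.6, 9.88 and 28.7 in WT CD8 libraries. The groups lay far apart, without overlap. CD4 was a marker by which the subsets were sorted, so a difference in *Cd4* is not an independent result. The difference was 8.94 ± 0.56 (SE, adjusted p = 0.000144, limma), the largest rise in the comparison, and it passed whichever library was left out. In KO CD4 libraries *Cd4* read 54511, 44804, 74386 and 72645, so that KO DP libraries held 28.2%, 19.5%, 17.4% and 15.8% of the level of the KO CD4 library with the same number. KO CD8 libraries read 302, 336, 349 and 458. KO CD4 replicate 1 also held *Cd8a* at 3771, above the 78.3 to 227 of the other KO CD4 libraries.

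*Cd8a*, the alpha chain of CD8, read 56492, 41594, 68516 and 52025 in KO DP libraries and 62857, 63084, 68733 and 62768 in WT CD8 libraries. *Cd8b1*, the beta chain, read 45336, 43969, 48814 and 34203 against 32976, 31172, 34382 and 34031. The groups overlapped for both genes, and neither passed the threshold (difference -0.26 ± 0.16, adjusted p = 0.29, and 0.37 ± 0.13, adjusted p = 0.0874). *Cd8a* was lower past the threshold without KO DP replicate 3 (adjusted p = 0.036), with quantile normalization (-0.71, adjusted p = 0.00647) and with array weights, and *Cd8b1* was higher past it without KO DP replicate 4 (adjusted p = 0.027) and with DESeq2 (adjusted p = 0.0145). Against the KO CD8 library of the same number, KO DP libraries held 90.9% to 105% of *Cd8a* and 94.3% to 109% of *Cd8b1*. *Zbtb7b*, which encodes the CD4 lineage factor ThPOK, read 2457, 1848, 3840 and 2808 in KO DP libraries, on both sides of the 2959, 2733, 2748 and 2759 of WT CD8 libraries, and 5893 to 9788 in KO CD4 libraries. *Runx3*, its counterpart in the CD8 lineage, was lower in every KO DP library (8724, 8670, 4142 and 7922) than in WT CD8 libraries (10403, 10516, 10474 and 10780). The *Runx3* difference of -0.58 ± 0.22 missed the threshold (adjusted p = 0.0994), and without KO DP replicate 3 it was -0.32 (adjusted p = 0.00598). It also passed in the joint fit of 20 libraries and with array weights (adjusted p up to 0.0119).

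**Figure D1:**
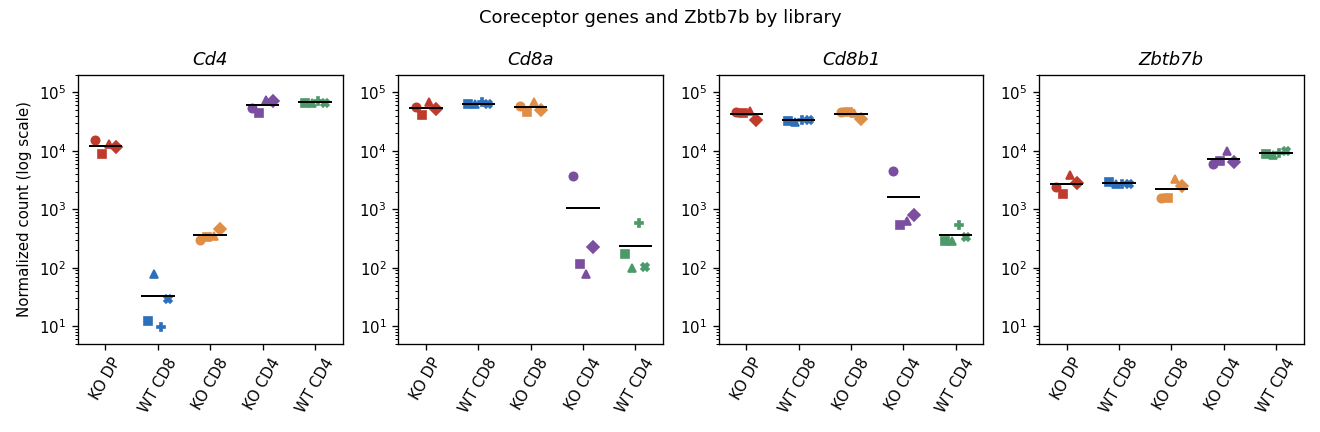
Normalized counts of *Cd4*, *Cd8a*, *Cd8b1* and *Zbtb7b* (log axis) in the 5 groups of the series. Each point is a library, its shape marks the replicate number, and the line is the mean of 4 libraries. *Cd4* in KO DP libraries lies between 8758 and 15351, above both CD8 groups and below both CD4 groups, while *Cd8a* and *Cd8b1* lie with the CD8 groups.

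Of the 16 coreceptor genes and lineage regulators, 2 rose (*Cd4* and *Satb1*), 1 fell (*Tox*) and 13 did not pass, and without KO DP replicate 3 the counts were 4 and 3. The backgrounds are 7.03% of all genes tested that rose and 9.5% that fell, and 15.2% and 16.9% without KO DP replicate 3. *Satb1*, a chromatin organizer that acts in thymocytes, read 12280, 7577, 9310 and 18000 in KO DP libraries and 6507, 6564, 5939 and 6341 in WT CD8 libraries (0.82 ± 0.23, adjusted p = 0.0401), with no overlap. Its call was lost without KO DP replicate 1, without any WT CD8 library (adjusted p up to 0.109) and with quantile normalization (adjusted p = 0.0642). *Lef1*, a TCF family factor of naive and memory cells, read 5931, 5531, 1961 and 5309 against 2230, 2530, 2283 and 2608, so that replicate 3 alone was below the WT CD8 libraries (0.84 ± 0.32, adjusted p = 0.0974, and 1.21, adjusted p = 0.000119, without it). With all libraries *Lef1* passed with edgeR, DESeq2, the joint fit and array weights (adjusted p up to 0.049).

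Of the genes in a list of thymic DP cells, *Dntt*, *Ptcra*, *Rag1* and *Arpp21* were at or near 0 in most KO DP libraries, whereas members that mature T cells also express were not. *Themis*, which tunes T cell receptor signals, read 10042 to 10669 in KO DP and 11393 to 13256 in WT CD8 libraries, and *Cd5*, a damper of these signals, read 6896 to 11363 against 7336 to 8910. *Dntt*, the terminal transferase of receptor rearrangement, had no read in any KO DP library. *Ptcra*, the pre-T cell receptor chain, reached 0.959 in replicate 4 and was at 0 in the others. *Rag1*, which cuts receptor genes, read 38.5 in KO DP replicate 3 and 0 in the other 3, and *Arpp21* read 13.7 in replicate 3 only. Among the 9 of 16 thymocyte genes that could be tested, none rose and 1 fell, *Cd1d1*, which presents lipids to NKT cells (-0.68, adjusted p = 0.0341), a call that was lost without any library other than KO DP replicate 3 (adjusted p up to 0.108). Without replicate 3, 1 rose and 3 fell, against 15.2% and 16.9% of all genes. The summed level of the list was 24491 to 29676 in KO DP and 27443 to 29081 in WT CD8 libraries.

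To set *Cd4* against other genes of the CD4 lineage, the 30 genes with the largest excess in WT CD4 over WT CD8 libraries, coreceptor genes left out, were read in KO DP, KO CD8 and KO CD4 libraries. KO DP cells were closer to KO CD8 cells for 28 of the 30 and closer to KO CD4 cells for 2, *Krt17* and *Lgals7*. On the linear scale the median of the 30 lay 1.5% of the way from the KO CD8 to the KO CD4 level, whereas *Cd4* lay 19.2% of the way. *Ccr4*, a chemokine receptor of helper T cells, had a mean of 26.4 in KO DP, 8.43 in KO CD8 and 341 in KO CD4 libraries. *Tnfsf11*, which encodes RANKL, had means of 142, 58.0 and 823, and *Trat1*, a T cell receptor adaptor, had 53.8, 110 and 815. In the other direction, KO DP cells were again closer to KO CD8 cells for 28 of the 30 genes with the largest excess in WT CD8 libraries, with *Cd8a* and *Cd8b1* left out. *Prf1*, the pore protein perforin, had means of 21419 in KO DP, 22236 in KO CD8 and 3088 in KO CD4 libraries. Between KO DP and KO CD8 libraries, *Cd4* was the single gene past the threshold among 12153 tested (0.00823%), with a difference of 5.05. At an unadjusted p below 0.05 there were 237 genes, and 3 genes were called by DESeq2 in place of limma. In the fit with the replicate number as a block, which pairs libraries of these groups, the count at an unadjusted p below 0.05 was 1447, and *Cd4* was again the single gene past the threshold.

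**Figure D2:**
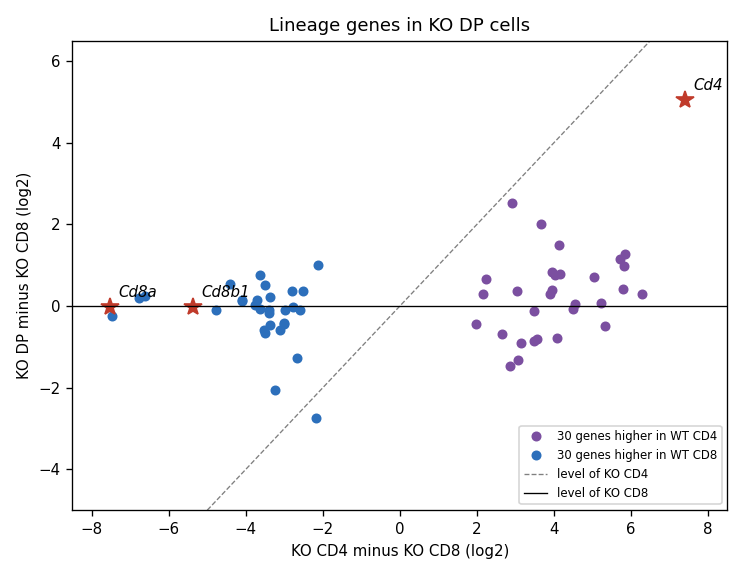
Difference between KO DP and KO CD8 cells (vertical axis, log2) against the difference between KO CD4 and KO CD8 cells (horizontal axis, log2) for the 30 genes most in excess in WT CD4 and the 30 most in excess in WT CD8 libraries, with the coreceptors as stars. Group means of 4 libraries are plotted. *Cd4* lies 5.05 above the KO CD8 line, whereas 28 of 30 genes of either kind lie closer to that line than to the dashed line of KO CD4 cells.

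The targeted gene was lower in KO DP cells. *Dnmt3a* (chromosome 12, 3801559 to 3914443) read 1571, 1021, 650 and 1332 in KO DP libraries and 3549, 3542, 3756 and 3812 in WT CD8 libraries. The groups did not overlap, and the fall was -1.75 ± 0.24 (adjusted p = 0.00252). The count covers all exons of the gene, so reads outside the deleted part are included. KO CD8 libraries read 2007, 1287, 1515 and 1664. Of 14 tested enzymes and readers of DNA methylation, *Mbd2*, which binds methylated CpG sites, rose (0.55 ± 0.11, adjusted p = 0.0126; 13293 to 17811 against 10906 to 11154), *Dnmt3a* fell and 12 did not pass. Without replicate 3, 2 rose and 2 fell, against 15.2% and 16.9% of all genes. The *Mbd2* call was lost, at adjusted p up to 0.0514, without WT CD8 replicate 3, 5 or 6. *Dnmt3b*, the other de novo methyltransferase, read 2163, 1791, 1065 and 1770 in KO DP libraries and 1106, 948, 1093 and 1034 in WT CD8 libraries. Its difference of 0.66 ± 0.20 missed the threshold (adjusted p = 0.0535), and without replicate 3, the 1 KO DP library inside the WT CD8 range, it was 0.86 (adjusted p = 0.000958). *Dnmt3b* passed in 8 of the other fits of all libraries, edgeR and DESeq2 among them (adjusted p up to 0.0497). *Dnmt1*, which copies methylation at replication, overlapped between groups (14194 to 27621 against 24458 to 25985) and did not pass (-0.50 ± 0.20, adjusted p = 0.115). It was lower past the threshold without KO DP replicate 2 (adjusted p = 0.0107), with quantile normalization and with array weights. Among 14 polycomb and H3K9 methylation genes, 2 fell, *Cbx7* (-0.66, adjusted p = 0.0286) and the H3K27 demethylase *Kdm6b* (-0.66, adjusted p = 0.0262). Both calls were lost without WT CD8 replicate 2, 5 or 6, and that of *Cbx7* also without WT CD8 replicate 3 or KO DP replicate 2 (adjusted p up to 0.0937). Without replicate 3, 4 of the 14 fell, against 16.9% of all genes.

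Across all genes tested, 2044 (16.5%) passed the threshold, of which 869 rose and 1175 fell, and the median difference over all genes was -0.07. Which direction was more frequent depended on the scaling and the tool, with 1153 rises and 1145 falls after quantile normalization, 1069 and 1015 with edgeR and 1713 and 1589 with DESeq2. In 2018 of the 2044 the groups did not overlap, which held for 30.6% of all genes tested. Changes of at least 2-fold were seen in 132 of the genes that rose and 483 of those that fell. Leaving out KO DP replicate 3 raised the count to 3980 (32.2% of 12371 genes, 15.2% rising and 16.9% falling), which included 2039 of the 2044 with the same direction. Leaving out WT CD8 replicate 2, 3, 5 or 6 lowered it to 779, 811, 811 and 767, respectively. Loss of a call without a WT CD8 library, as given for single genes, is therefore common to most of the genes called.

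After *Cd4*, the largest rise was that of *Igsf23*. *Igsf23*, an immunoglobulin superfamily member, read 203, 143, 257 and 212 in KO DP libraries and 2.62, 6.72, 27.9 and 10.2 in WT CD8 libraries (4.36 ± 0.61, adjusted p = 0.00281). *Scn2b*, a sodium channel beta subunit, read 323, 292, 259 and 525 against 16.6, 26.9, 45.8 and 36.1 (3.47 ± 0.37, adjusted p = 0.0012). *Dnajc6*, the auxilin that uncoats clathrin vesicles, read 208, 568, 326 and 428 against 33.1, 46.1, 49.4 and 24.1 (3.25 ± 0.37, adjusted p = 0.00148). All 4 KO DP libraries stood above all WT CD8 libraries for the 3 genes, and KO CD8 libraries read 80.8 to 215, 289 to 514 and 238 to 645. *Cd79b*, a signalling chain of the B cell receptor (chromosome 11, 106311341 to 106314562), read 1741, 1998, 2185 and 1588 in KO DP libraries against 245, 190, 211 and 147 in WT CD8 libraries (3.25 ± 0.19, adjusted p = 0.000144), and 1413 to 2245 in KO CD8 libraries. Of 3 B cell markers tested, *Cd79b* rose and none fell (median 1.28), and without KO DP replicate 3 all 3 rose, against 15.2% of all genes. *Cd22* was at 0.61 and did not pass (adjusted p = 0.186). *Ms4a1* (CD20) and *Pax5* were at 0 in every KO DP library and read at most 1.85 and 4.63 in WT CD8 libraries. *Cd79a*, the partner chain, read 44.2, 34.3, 28.5 and 32.6 against 14.8, 21.1, 9.88 and 11.1 and did not pass (adjusted p = 0.0895), or passed without KO DP replicate 3 (adjusted p = 0.0418).

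The other genes among the 10 largest rises were *Tmem108* (3.26), *Tmem176b* (3.01), *Myl10* (2.90), *Cabp1* (2.86) and *G0s2* (2.81), a regulator of lipolysis. The *Tmem108* call was lost without KO DP replicate 4 or without any WT CD8 library (adjusted p up to 0.0885), and the other 9 passed whichever library was left out. The largest falls reported here were *Hspa1a* (-7.87), *Hspa1b* (-7.70), *Npas4* (-5.33), *Ceacam16* (-5.06), *Fosb* (-4.61), *Trim10* (-4.44), *Tvp23a* (-4.39), *Insl3* (-4.14) and *Tead1* (-3.95). Heat shock and immediate early genes among them are described with their groups. *Ceacam16*, *Trim10*, *Insl3* and *Tead1* lost their calls when any WT CD8 library was left out (adjusted p up to 0.0928). *Ceacam16*, *Insl3* and *Tead1* also lost them without KO DP replicate 2, and *Trim10* without KO DP replicate 4. With edgeR on whole reads *Ceacam16* and *Trim10* did not pass (adjusted p up to 0.0612), nor did *Ceacam16* with DESeq2. *Tvp23a* lost its call without WT CD8 replicate 2 or 6 (adjusted p up to 0.0531). The sizes of these falls rest on values near 0. With a pseudocount of 10, *Hspa1a* was at -6.66 and *Npas4* at -3.07. Without KO DP replicate 3, *Ceacam16* was at -4.07, *Tvp23a* at -3.32, *Tead1* at -2.97 and *Insl3* at -2.91, while *Hspa1a* was at -8.94, *Npas4* at -6.48 and *Trim10* at -5.44. *Trim10*, which is also expressed in red cell precursors, read 0 to 58.3 in KO DP libraries against 90.7 to 390. The summed level of erythroid and platelet markers was 274, 88.3, 1754 and 445 in KO DP libraries and 1040, 2583, 2525 and 1141 in WT CD8 libraries, so that KO DP replicate 3 lay within the WT CD8 range, and 1 of 7 markers fell, *Ppbp* of platelets (-3.93, adjusted p = 0.0341). The *Ppbp* call was lost without KO DP replicate 1 or 2, without any WT CD8 library (adjusted p up to 0.104) and with edgeR, and without KO DP replicate 3 all 7 markers fell. Their part in the fall of *Trim10* was not tested.

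**Figure D3:**
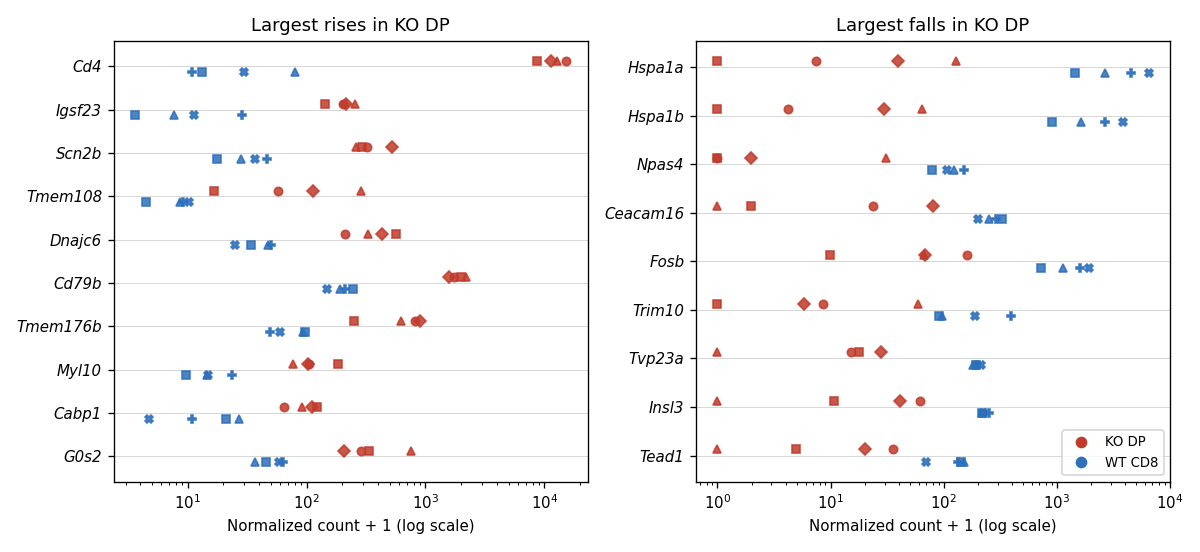
Normalized counts plus 1 (log axis) of the 10 largest rises (left) and the 9 largest falls reported here (right) in KO DP libraries (red) and WT CD8 libraries (blue), with a point for each library and its shape for the replicate number. The groups do not overlap in any of the genes, which the selection required, and *Hspa1a* and *Hspa1b* reach 0 in KO DP replicate 2.

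Heat shock and immediate early genes were among the largest falls. The inducible HSP70 genes *Hspa1a* and *Hspa1b* help proteins refold after stress and are near-identical copies, so that reads may be split between them and each value is uncertain on its own. The 250 bases before their start sites, as RefSeq gives them for GRCm38.p6, are shown because the promoters share the heat shock element in capitals, GAANNTTC, whose first base lies 104 bases before the start site. They lie on the minus strand at chr17:34972157-34972406 (*Hspa1a*) and chr17:34959239-34959488 (*Hspa1b*), and 98.8% of their bases were identical.
Hspa1a: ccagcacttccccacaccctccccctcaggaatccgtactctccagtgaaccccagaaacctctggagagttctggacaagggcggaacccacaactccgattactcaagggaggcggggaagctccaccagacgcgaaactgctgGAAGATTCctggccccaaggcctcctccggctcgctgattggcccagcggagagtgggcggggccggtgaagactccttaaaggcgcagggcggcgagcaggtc
Hspa1b: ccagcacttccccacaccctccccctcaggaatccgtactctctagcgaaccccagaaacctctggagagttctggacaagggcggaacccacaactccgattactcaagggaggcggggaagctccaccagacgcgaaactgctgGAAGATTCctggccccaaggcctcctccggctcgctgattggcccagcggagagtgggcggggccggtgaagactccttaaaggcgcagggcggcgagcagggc
The element was searched as GAANNTTC and TTCNNGAA, which read the same on both strands, and 12.8% of 32851 RefSeq promoter stretches of that length held either.

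*Hspa1a* (chromosome 17, 34969359 to 34972156) read 6.47, 0, 127 and 38.4 in KO DP libraries and 1435, 2664, 4529 and 6483 in WT CD8 libraries. *Hspa1b* read 3.24, 0, 63.3 and 28.8 against 908, 1627, 2659 and 3854. No KO DP library came near a WT CD8 library for either, the differences were -7.87 ± 1.28 (adjusted p = 0.00539) and -7.70 ± 1.16 (adjusted p = 0.00413), and KO CD8 libraries read 4.12 to 57.8 and 4.12 to 49.2. In the CD4 groups *Hspa1a* read 2221, 4506, 7352 and 10882 in WT and 13.2 to 82.1 in KO libraries. *Hspa1a*, *Fos*, *Fosb* and *Jun* were higher at each higher replicate number in both WT subsets, the reason for which was not tested. Of 18 heat shock genes tested, 4 fell, none rose and the median was -0.28, against 9.5% of all genes that fell. Without replicate 3, 7 fell, against 16.9% of all genes. *Hsph1*, an HSP110 chaperone, fell by 1.05 (adjusted p = 0.00179) and *Hsf1*, the factor that turns these genes on, fell by 0.82 (adjusted p = 0.00252). The constitutive chaperones *Hspa8* (0.06, adjusted p = 0.822) and *Hsp90ab1* (0.17, adjusted p = 0.479) did not pass.

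Of 26 immediate early genes, which T cells transcribe within minutes of stimulation, 13 fell and 1 rose, with a median of -1.02. *Fosb*, an AP-1 subunit, read 160, 8.83, 65.8 and 67.1 in KO DP libraries and 722, 1129, 1604 and 1931 in WT CD8 libraries (-4.61 ± 0.74, adjusted p = 0.00514). *Fos* read 288, 73.6, 345 and 347 against 1594, 1929, 2619 and 3138 (-3.31 ± 0.48, adjusted p = 0.00331), and *Jun*, its AP-1 partner, read 495, 130, 600 and 873 against 2450, 2890, 3807 and 4730 (-2.97 ± 0.51, adjusted p = 0.0067). KO DP replicate 2 was the lowest of the 8 libraries for all 3 genes, and the groups did not overlap. *Npas4* read 0, 0, 29.8 and 0.959 against 77.6, 122, 150 and 107 (-5.33 ± 1.06, adjusted p = 0.0115), and edgeR on whole reads did not call it (adjusted p = 0.058). *Dusp1*, a MAP kinase phosphatase, read 750, 524, 866 and 510 against 1151, 1649, 2563 and 2416 (-1.52 ± 0.28, adjusted p = 0.00851). The gene that rose was *Ier3* (0.67, adjusted p = 0.0494), a call lost without KO DP replicate 1 or 4 and without any WT CD8 library (adjusted p up to 0.142), and *Junb* (-0.41, adjusted p = 0.371) and *Jund* (-0.12, adjusted p = 0.67) did not pass. Without replicate 3, 15 fell and 1 rose.

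The promoters of *Fos* (plus strand, chr12:85473640-85473889) and *Fosb* (minus strand, chr7:19310046-19310295) are shown, as the 250 bases before the start site that RefSeq's promoter entry uses, with TGACG, the core of the cyclic AMP response element, in capitals. It was searched on both strands. RefSeq's extent of *Fosb* (19302696 to 19310118) begins upstream of that start site, so that part of the stretch lies within the gene as annotated.
Fos: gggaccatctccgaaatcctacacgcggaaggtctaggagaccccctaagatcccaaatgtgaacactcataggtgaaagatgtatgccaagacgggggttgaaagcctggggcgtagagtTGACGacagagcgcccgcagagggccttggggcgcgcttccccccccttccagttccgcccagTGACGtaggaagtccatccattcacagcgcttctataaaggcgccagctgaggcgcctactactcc
Fosb: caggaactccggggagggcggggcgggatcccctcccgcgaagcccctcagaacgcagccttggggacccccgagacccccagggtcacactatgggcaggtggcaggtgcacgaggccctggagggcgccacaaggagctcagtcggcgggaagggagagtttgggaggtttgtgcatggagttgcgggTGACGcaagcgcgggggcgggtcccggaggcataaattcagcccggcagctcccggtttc
The stretches held 2 such cores in *Fos* and 1 in *Fosb*, and 17.8% of all promoter stretches held at least 1. The CArG box was found in neither stretch and in 1.5% of all. Bases farther upstream were not searched, so its absence holds for these 250 bases only.

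Of 15 transcription factors of T cell exhaustion tested, 8 fell, 7 did not pass and none rose, with a median of -0.58. The NR4A receptors are induced by T cell receptor signalling and restrain effector genes. *Nr4a2* read 627, 677, 2189 and 1768 in KO DP libraries and 4432, 4345, 5661 and 4238 in WT CD8 libraries (-2.03 ± 0.39, adjusted p = 0.00965). *Nr4a3* read 412, 343, 819 and 674 against 1452, 1394, 1294 and 1443 (-1.40 ± 0.26, adjusted p = 0.00855), and *Nr4a1* read 602, 658, 1121 and 1012 against 1595, 1675, 2110 and 2263 (-1.21 ± 0.22, adjusted p = 0.00866). The 3 NR4A genes also belong to the immediate early list. For each, all KO DP libraries lay below all WT CD8 libraries, and replicates 1 and 2 lay lowest.

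*Nfat5*, an NFAT family factor, read 2001, 1183, 804 and 1499 against 4128, 4939, 3542 and 4172 (-1.68 ± 0.25, adjusted p = 0.00378). *Eomes*, a T-box factor of effector and exhausted CD8+ T cells, read 1913, 1448, 1012 and 1136 against 3567, 3519, 4073 and 4824 (-1.57 ± 0.20, adjusted p = 0.00198). *Tox*, which sustains exhausted cells, read 11084, 7889, 5419 and 5096 against 12648, 11883, 16124 and 12046 (-0.90 ± 0.24, adjusted p = 0.0324). The groups did not overlap for these genes, and replicate 3 was lowest for *Nfat5* and *Eomes*. *Irf4* (-0.52 ± 0.14, adjusted p = 0.038) and *Prdm1* (-0.48 ± 0.12, adjusted p = 0.0256), which encode factors of effector differentiation, fell less. The calls of *Irf4*, *Prdm1* and *Tox* were lost without any WT CD8 library, and that of *Tox* also without KO DP replicate 4 (adjusted p up to 0.119). *Tcf7*, which maintains stem-like T cells, read 4836, 1336, 3040 and 4722 against 2546 to 3936, with 2 KO DP libraries above that range and 1 below.

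Of 13 inhibitory receptors, 2 fell and none rose (median -0.27), against 9.5% and 7.03% of all genes. *Lilrb4a* read 1788, 1267, 2352 and 1367 in KO DP libraries and 4900, 4209, 4304 and 5037 in WT CD8 libraries (-1.48 ± 0.19, adjusted p = 0.00192). *Havcr2*, which encodes TIM3, read 6862, 9394, 9671 and 10164 against 13308, 13010, 11539 and 12139 (-0.48 ± 0.13, adjusted p = 0.038), and its call was lost without KO DP replicate 2, without any WT CD8 library (adjusted p up to 0.119) and in the fit of all 20 libraries (adjusted p = 0.163). *Pdcd1*, which encodes PD-1, read 14153, 20509, 30707 and 18352 against 25663, 27231, 27745 and 24223. Replicate 3 was the highest of the 8 libraries and the other 3 were the lowest, and the difference was -0.38 ± 0.21 (adjusted p = 0.226), or -0.58 (adjusted p = 0.00879) without replicate 3. *Lag3* had 1 KO DP library, replicate 3, within the WT CD8 range and the other 3 below it, with 15383, 11039, 28811 and 21241 against 29242, 24548, 30348 and 24306 (-0.59 ± 0.26, adjusted p = 0.148, and -0.81, adjusted p = 0.0157, without replicate 3). With all libraries, *Pdcd1* (-0.61, adjusted p = 0.0353) and *Lag3* (-0.81, adjusted p = 0.0494) passed with quantile normalization, and both passed with array weights. Without replicate 3, 6 of the 13 fell and 1 rose, against 16.9% and 15.2% of all genes.

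Cytotoxic genes included 3 that rose and none that fell among 19 tested, with a median of -0.14, against 7.03% and 9.5% of all genes. Without KO DP replicate 3, 4 rose and 5 fell among 18, against 15.2% and 16.9% of all genes. *Gzma*, the serine protease granzyme A, read 43620, 232859, 90003 and 42580 in KO DP libraries and 20577, 17492, 11804 and 15752 in WT CD8 libraries (2.30 ± 0.49, adjusted p = 0.0149). Every KO DP library was above every WT CD8 library, and replicate 2 was far above the others. Its call was lost without WT CD8 replicate 5 or 6 (adjusted p up to 0.054). *Gzmb* (99141, 270285, 229806 and 140935 against 123834, 153597, 100264 and 107998) and *Prf1* (13443 to 25347 against 19708 to 28092) overlapped between groups and did not pass (0.52, adjusted p = 0.278, and -0.14, adjusted p = 0.657). *Lamp1* of lytic granules rose by 0.65 (adjusted p = 0.0197) and the granzyme inhibitor *Serpinb6b* by 0.57 (adjusted p = 0.031), both of which lost their calls without any WT CD8 library (adjusted p up to 0.102). *Ifng* was the 1 cytokine gene of 15 that fell, at 2502, 3240, 9172 and 5439 against 10544, 10611, 11937 and 11556 (-1.31 ± 0.34, adjusted p = 0.0313). Its call was lost without KO DP replicate 2, without any WT CD8 library (adjusted p up to 0.0878) and with edgeR. Without replicate 3, 3 of the 15 cytokine genes fell, against 16.9% of all genes. None of 13 helper and regulatory T cell genes passed with limma (3 at an unadjusted p under 0.05, 0 with edgeR and 1 with DESeq2), and 1 rose without replicate 3. Over all 12362 genes, 4196 were at an unadjusted p under 0.05, and DESeq2 called 3302.

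Among 16 NK receptors and adaptors, 2 rose and 1 fell, or 2 and 4 without replicate 3. Over all genes 7.03% rose and 9.5% fell, or 15.2% and 16.9% without replicate 3. *Klrb1c*, which encodes NK1.1, read 1259, 661, 1080 and 2602 against 268, 312, 70.1 and 179 (2.77 ± 0.52, adjusted p = 0.00897). *Fcer1g*, a signalling adaptor of NK and myeloid cells, read 1102, 2365, 2590 and 930 against 461, 337, 227 and 366 (2.23 ± 0.36, adjusted p = 0.00522). Both were above the WT CD8 range in all 4 KO DP libraries. *Cd226*, an activating adhesion receptor, fell by 0.79 (adjusted p = 0.0129), and its call was lost without WT CD8 replicate 2 (adjusted p = 0.0513). *Fcer1g* is also expressed in myeloid cells. The sum of the myeloid markers was 10254, 10821, 12413 and 6361 in KO DP libraries and 13130, 11813, 10908 and 16776 in WT CD8 libraries, and none of 13 passed with limma (2 at an unadjusted p under 0.05, 0 with edgeR and 1 with DESeq2). An unadjusted p under 0.05 was reached by 4196 of all 12362 genes, and DESeq2 called 3302. The median difference of the myeloid markers was -2.74. Without replicate 3, 8 of them fell and none rose, against 16.9% of all genes that fell. The part of the myeloid markers in the *Fcer1g* rise was not tested.

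Interferon-stimulated genes fell in part. Of 34 tested, 9 fell and none rose, with a median of -0.15. *Mx1*, an antiviral GTPase, read 546, 443, 432 and 701 in KO DP libraries and 1712, 1835, 1777 and 1732 in WT CD8 libraries (-1.76 ± 0.16, adjusted p = 0.000638). *Gbp4*, a guanylate-binding protein, read 5796, 4448, 5481 and 5292 against 13017, 10608, 11300 and 11514 (-1.15 ± 0.11, adjusted p = 0.000783). *Irf1* read 9840, 10421, 12006 and 9614 against 17204, 14786, 15186 and 14999 (-0.57 ± 0.11, adjusted p = 0.00851). KO DP libraries lay close together below the WT CD8 libraries for these 3 genes. *Rsad2* (-1.76, adjusted p = 0.0411) lost its call without any WT CD8 library, without KO DP replicate 1, 2 or 4 (adjusted p up to 0.0911) and with quantile normalization (adjusted p = 0.0536). In the MHC class I list of 18, 1 rose and 2 fell, against 7.03% and 9.5% of all genes. *Nlrc5*, the transactivator of MHC class I genes, read 14347, 9358, 5254 and 10283 against 22785, 22131, 20393 and 21526 (-1.23 ± 0.26, adjusted p = 0.0135). The nonclassical gene *H2-Q4* fell by 0.61 (adjusted p = 0.0387) and *H2-D1* rose by 0.39 (adjusted p = 0.0385), 2 genes that share sequence with others of the family and whose calls were lost without any WT CD8 library, that of *H2-D1* also without KO DP replicate 1 (adjusted p up to 0.125) and with quantile normalization (adjusted p = 0.122).

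Products of the Ifitm genes sit in membranes and limit virus entry, and 2 of the 5 tested, *Ifitm2* and *Ifitm3*, rose, as did the paired membrane genes *Tmem176a* and *Tmem176b*. *Ifitm3* read 1421, 5109, 2180 and 1753 in KO DP libraries and 700, 392, 329 and 335 in WT CD8 libraries (2.46 ± 0.40, adjusted p = 0.0051). *Ifitm2* read 1013, 2792, 1576 and 1198 against 520, 385, 341 and 505 (1.82 ± 0.30, adjusted p = 0.00572). Replicate 2 was highest for both and the groups did not overlap. *Ifitm1* (2736, 11770, 5762 and 1522 against 1423 to 2224) did not pass (1.21, adjusted p = 0.143) except with DESeq2 (adjusted p = 0.00701). Without replicate 3, 3 of the 5 rose and 1 fell. *Tmem176b* read 816, 251, 627 and 895 against 96.8, 93.1, 48.5 and 59.3 (3.01 ± 0.42, adjusted p = 0.00294), and *Tmem176a* read 603, 182, 282 and 555 against 66.3, 77.7, 59.3 and 85.3 (2.33 ± 0.39, adjusted p = 0.00587). Replicate 2 was the lowest KO DP library for both and still above all WT CD8 libraries. Of the 10 *Tmem176* and *Gimap* genes, 5 rose and 1 fell, *Gimap8*, at 8753 to 11246 against 14782 to 16164 (-0.69 ± 0.10, adjusted p = 0.00399).

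Among 26 homing receptors and integrins, 3 rose and 2 fell, shares near the 7.03% and 9.5% of all genes, and without replicate 3, 7 rose and 3 fell among 25. *Ccr9*, the receptor for the small intestinal chemokine CCL25, read 1022, 248, 779 and 3559 in KO DP libraries and 297, 218, 321 and 223 in WT CD8 libraries. KO DP replicate 2 was within the WT CD8 range and the other 3 were above it, and the difference was 1.81 ± 0.65 (adjusted p = 0.0853), or past the threshold without replicate 2 (adjusted p = 0.0154) and with edgeR, DESeq2 or quantile normalization. *Itgb7*, the beta 7 integrin chain that pairs with alpha 4 for gut homing, read 59680, 68407, 49610 and 44365 against 36507, 35326, 34896 and 38093 (0.60 ± 0.15, adjusted p = 0.0283), and its call was lost with quantile normalization (adjusted p = 0.362). *S1pr4*, a sphingosine phosphate receptor, rose by 0.79 (adjusted p = 0.0191) and *Cxcr4* by 0.84 (adjusted p = 0.0271). *Itgae*, the CD103 chain of epithelial retention, fell (103, 45.1, 135 and 105 against 211, 223, 199 and 203; -1.20 ± 0.34, adjusted p = 0.0396). The calls of *Itgb7* and *S1pr4* were lost without any WT CD8 library, that of *Itgae* also without KO DP replicate 1 or 4, and that of *Cxcr4* without KO DP replicate 2 or 4 or WT CD8 replicate 2, 5 or 6 (adjusted p up to 0.116).

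Of 23 cytokine receptors, *Ifngr1* rose (0.68, adjusted p = 0.0192), *Il15ra* (-0.73, adjusted p = 0.0305) and *Il6st* (-0.70, adjusted p = 0.0217) fell and 20 did not pass. Without replicate 3, 9 rose and 4 fell, against 15.2% and 16.9% of all genes. *Il7r*, a receptor of resting and memory T cells, read 8035, 2208, 1998 and 4280 against 1879, 1504, 1605 and 1668. All KO DP libraries were above the WT CD8 libraries, replicate 3 by the least, and the difference was 1.08 ± 0.39 (adjusted p = 0.0826), or 1.35 (adjusted p = 0.0207) without replicate 3. *Il7r* also passed with edgeR, DESeq2 and array weights (adjusted p up to 0.0489). *Ifngr1* did not pass with quantile normalization (adjusted p = 0.0539). The calls of *Ifngr1*, *Il15ra* and *Il6st* were lost without WT CD8 replicate 2, 3 or 5, and those of *Ifngr1* and *Il15ra* also without replicate 6 and that of *Il15ra* without KO DP replicate 4 (adjusted p up to 0.100).

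T cell receptor signalling genes had a median of 0.02, with 2 rises and 3 falls among 27, or 4 and 4 without replicate 3. Over all genes 7.03% rose and 9.5% fell, or 15.2% and 16.9% without replicate 3. *Cd6*, a scaffold receptor, read 22325, 12877, 20199 and 22274 against 9900, 11384, 9237 and 8353 (0.97 ± 0.19, adjusted p = 0.00971). *Cd247*, the zeta chain, rose by 0.53 (adjusted p = 0.0357). The ubiquitin ligase *Cblb* (-0.60, adjusted p = 0.0144) and the CD3 chain *Cd3e* (-0.40, adjusted p = 0.0412) fell. Apart from *Cd6*, each of these calls was lost without WT CD8 replicate 2, 3 or 5 (adjusted p up to 0.127), and those of *Cd247* and *Cd3e* also without replicate 6 and without KO DP replicate 1 (*Cd247*) or 2 or 4 (*Cd3e*). With edgeR *Cd3e* did not pass (adjusted p = 0.0512).

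In the PI3K pathway, 1 of 19 genes rose, *Pik3ip1*, an inhibitor of the kinase, at 4150, 1239, 1247 and 3208 against 760, 842, 728 and 706 (1.49 ± 0.38, adjusted p = 0.0283). Without replicate 3, 6 rose and 2 fell, against 15.2% and 16.9% of all genes. *Pik3r1*, the regulatory subunit, read 10865, 8403, 4425 and 6467 against 5795, 5645, 5194 and 5865, with replicate 3 below and the other 3 above all WT CD8 libraries (0.35 ± 0.24, adjusted p = 0.322, and 0.58, adjusted p = 0.0211, without replicate 3). Of 16 BCL2 family genes, 2 rose, the death genes *Bbc3* (1.11, adjusted p = 0.0316) and *Bad* (0.81, adjusted p = 0.0151). *Bcl2*, the survival gene, read 18421, 10755, 2429 and 6963 against 4115, 3343, 3940 and 3725 (1.01, adjusted p = 0.188, and 1.56, adjusted p = 0.00382, without replicate 3), and it passed with DESeq2 and array weights (adjusted p up to 0.0132). Without replicate 3, 7 of the 16 rose and 1 fell. Over all genes 7.03% rose with all libraries, and 15.2% rose and 16.9% fell without replicate 3. The calls of *Pik3ip1* and *Bbc3* were lost without KO DP replicate 4 or any WT CD8 library and that of *Bad* without WT CD8 replicate 2 or 6 (adjusted p up to 0.0905).

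Of 13 tested genes of the glucocorticoid receptor and its targets, 3 rose and 2 fell, against 7.03% and 9.5% of all genes. *Fkbp5*, which binds the receptor complex, read 27842, 27416, 15011 and 25119 in KO DP libraries and 10197, 11102, 10102 and 9411 in WT CD8 libraries (1.19 ± 0.19, adjusted p = 0.00515). *Ddit4*, an mTOR inhibitor, read 19021, 10661, 17531 and 17465 against 6327, 8140, 6693 and 5841 (1.24 ± 0.19, adjusted p = 0.00426). The groups did not overlap for either. The falls were *Dusp1* and *Per1* (-0.66, adjusted p = 0.0494), and the call of *Per1* was lost without KO DP replicate 2, without any WT CD8 library (adjusted p up to 0.125) and with edgeR.

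Proliferation genes spread widely among the KO DP libraries. None of 26 mitosis genes and none of 31 DNA replication genes passed with limma (6 and 3 at an unadjusted p under 0.05, 0 in both lists with edgeR and 1 in each with DESeq2). Over all 12362 genes tested, 4196 were at an unadjusted p under 0.05, and edgeR called 2084 and DESeq2 3302. The median over the mitosis list, relative to the WT CD8 mean, was -1.31, 0.16, -0.14 and -0.23 in KO DP replicates 1 to 4, and over the replication list -0.90, 0.35, 0.14 and -0.30. *Myc*, which drives growth, fell (1791, 2024, 2795 and 2862 against 3740, 3556, 4249 and 3506; -0.69 ± 0.16, adjusted p = 0.022), a call that was lost without any WT CD8 library (adjusted p up to 0.0767). None of 21 sterol synthesis genes passed with limma (2 at an unadjusted p under 0.05, 0 with edgeR and 2 with DESeq2).

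Nuclear-retained RNAs and splicing-related transcripts fell, 12 of 16 tested, with a median of -0.68. *Neat1*, the scaffold RNA of paraspeckles, read 2839, 1589, 1314 and 1878 in KO DP libraries and 13261, 11466, 10890 and 12844 in WT CD8 libraries (-2.72 ± 0.21, adjusted p = 0.000258). *Malat1*, an RNA of nuclear speckles, read 12590, 3605, 2777 and 5593 against 21488, 31241, 19753 and 23430 (-2.20 ± 0.41, adjusted p = 0.00867). The groups did not overlap, replicate 1 was the highest KO DP library for both, and without replicate 3 again 12 of 16 fell and 1 rose.

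Of 77 ribosomal protein genes, 12 rose and none fell (median 0.78), and of 75 respiratory chain and ATP synthase genes, 21 rose and none fell (median 0.54). When all genes were split by transcript length into 5 bins, 57 of the 77 and 56 of the 75 were in the bin with the shortest transcripts, of which 12.2% rose. Many ribosomal protein genes have pseudogene copies. Replicate 3 was highest in both lists, with medians over the ribosomal list of 0.46, 0.39, 1.70 and 0.63 in KO DP replicates 1 to 4 and over the respiratory list of 0.28, 0.47, 1.26 and 0.21. Without replicate 3 the medians were 0.49 and 0.32, and 67 of 77 and 39 of 76 genes rose, against 15.2% of all genes.

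**Figure D4:**
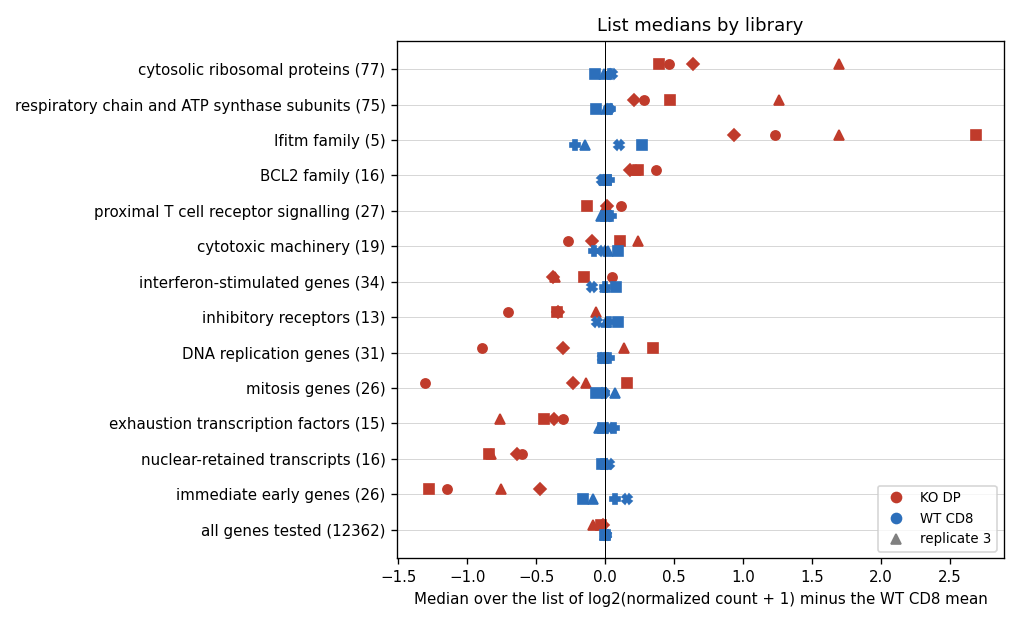
Median over the tested genes of each list (number in brackets) of log2(normalized count + 1) minus the WT CD8 mean, by library. Red points are KO DP, blue points WT CD8, and triangles replicate 3 of either group. The immediate early list lies between -1.28 and -0.47 in KO DP libraries and the ribosomal list between 0.39 and 1.70, with replicate 3 farthest out in the ribosomal and respiratory lists.

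Levels in KO DP libraries varied with transcript length. Genes were split by the length of their longest transcript into 5 bins of nearly equal number. In the bin with the shortest transcripts (55 to 1853 bases), the median relative to the WT CD8 mean was 0.65 in KO DP replicate 3 and 0.07 to 0.15 in the other KO DP libraries. In the bin with the longest (5126 to 123179 bases) it was -0.65 in replicate 3 and -0.18 to -0.07 in the others. Of the genes in the shortest bin 12.2% rose and 3.94% fell, and of those in the longest 1.97% rose and 13.4% fell. The median transcript length was 2322 bases for genes that rose, 3973 for those that fell and 3252 for all tested. The part of transcript length in the differences of single genes was not tested.

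**Figure D5:**
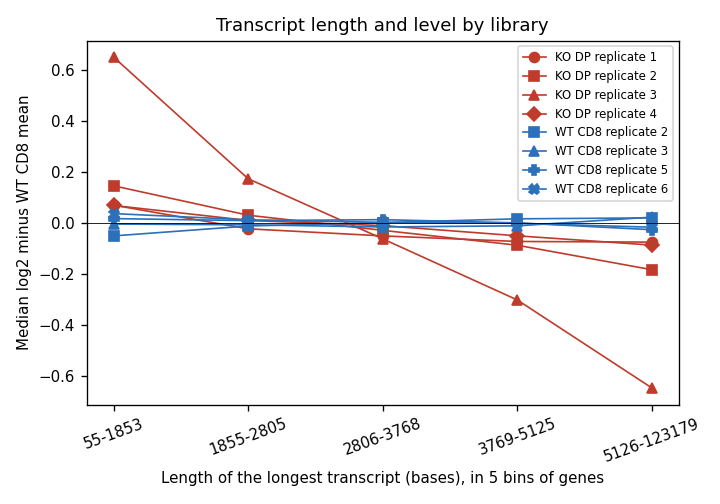
Median of log2(normalized count + 1) minus the WT CD8 mean (vertical axis) in 5 bins of genes by the length of the longest transcript (horizontal axis, bases), with a line for each library. KO DP replicate 3 runs from 0.65 in the shortest to -0.65 in the longest bin, and the other 7 libraries stay between -0.18 and 0.15.

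Markers of T cells and of other cells were read as a check on the sort. The summed level of T cell identity genes was 240682, 227321, 349309 and 224098 in KO DP libraries and 216956 to 226710 in WT CD8 libraries, and of 9 tested, *Cd247* rose and *Cd3e* fell. Pancreatic acinar genes summed to 3170, 3992, 10129 and 990 in KO DP libraries and 845 to 2285 in WT CD8 libraries, and none of 12 passed with limma (1 at an unadjusted p under 0.05, 0 with edgeR and 7 with DESeq2). Over all 12362 genes, 4196 were at an unadjusted p under 0.05, and DESeq2 called 3302. B cell markers summed to 2299 to 2523 in KO DP libraries, most of it from *Cd79b*. In WT CD8 libraries they summed to 417 to 541, and *Cd79b* read 147 to 245.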

How the data were processed

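RNA-Seq libraries were prepared with a strand-specific poly(A) kit, sequenced as paired ends and aligned by the authors with STAR to mm10 (GRCm38). The processing notes of the submitters name STAR 2.7.2b, and the version differs in the methods of the study. The authors counted reads on exons by strand and deposited a signal, the normalized count, which is the read count divided by a DESeq2 size factor. Dividing each value by the value of 1 read gave whole reads for 100% of the values in every library (tolerance 1e-06 reads), and these served edgeR and DESeq2. Samples were grouped by the genotype in the labels and the subset and number in the titles. The study calls the samples biological replicates. No libraries of a group were duplicates (smallest chi-square over its degrees of freedom 10.6).

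Genes with a mean of at least 10 over the libraries compared were tested with limma 3.58.1 in R 4.3.3 (mean-variance trend, log2(normalized count + 1), unpaired, 2-sided), with Benjamini-Hochberg adjustment over all genes tested and a threshold of 0.05. An exact permutation test of 4 libraries against 4 cannot give a p below 0.0286. Alternatives tried were 10 as pseudocount, no filter, a minimum mean of 50, quantile normalization, a common 75th percentile, no trend, edgeR 4.0.16 and DESeq2 1.42.0 on whole reads, a joint fit of 20 libraries, a block for the replicate number and fits that left out 1 library each. Array weights were added after the data were seen. KO DP and KO CD8 libraries with the same number deviated alike from their group means (r between 0.340 and 0.535), whereas KO DP and WT CD8 numbers name different donors.

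The members, gene lists and naming rule were chosen with earlier results of these data known. Named genes are those the study names from its RNA-Seq, the coreceptors, the 10 largest rises and falls past the threshold (mean 50 or more, groups without overlap), and in each list the 4 highest genes and up to 4 largest changes in each direction. *Zbtb7b*, *Runx3*, *Lef1*, *Dnmt3b*, *Pik3r1*, *Bcl2*, *Il7r*, *Prf1*, marker genes near 0 and further members of the lists were named after their values were seen. Some genes that the rule names are not reported here, and lists count all their members. Positions and promoters are those of RefSeq for GRCm38.p6, which matched 17042 genes. *Cd4* and *Cd79b* are among the genes without a promoter entry. Transcript lengths are the longest GENCODE M21 transcript of each gene.

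On simulated counts for KO DP against WT CD8 with 12227 genes, limma recovered 57.6% of genes changed by 1 log2 unit and 81% of those changed by 2, with a false share of 5.48%. For edgeR these values were 56.6%, 79% and 4.26%, and for DESeq2 72.7%, 87% and 18.0%. The simulation gave both groups the same spread for each gene, changed few genes and held no library that stood apart. In the data the median SD was 0.402 in KO DP and 0.100 in WT CD8 libraries, so these shares need not hold for them.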

Additional observations from a re-analysis of the deposited data

Results flagged for a closer look

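A library stood apart from the other 3 of its group (Dixon's test at the 95% level) in 13 of the 222 groups checked, which cover 111 named genes in KO DP and WT CD8 libraries, and chance alone flags about 1 group in 20. Of the 13, 7 were in KO DP libraries, 4 of them in replicate 3, and 6 in WT CD8 libraries.

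KO DP replicate 3 was the lowest KO DP library for *Runx3* (4142, others 7922 to 8724), *Lef1* (1961, others 5309 to 5931), *Prdm1* (2479, others 3169 to 3313) and *Fkbp5* (15011, others 25119 to 27842). The same library had the fewest genes with reads and the strongest relation of level to transcript length, and the part of these in the 4 values was not tested. KO DP replicate 2 was low for *Fos* (73.6, others 288 to 347) and *Ddit4* (10661, others 17465 to 19021), and KO DP replicate 1 for *Irf4* (1362, others 1941 to 2039).

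Among WT CD8 libraries, replicate 5 was high for *Cd8a* (68733, others 62768 to 63084), *Nr4a2* (5661, others 4238 to 4432) and *Rsad2* (1186, others 302 to 372). Replicate 2 was high for *Zbtb7b* (2959, others 2733 to 2759), and replicate 6 was low for *Tead1* (68.6, others 134 to 150) and *Il6st* (2081, others 2702 to 2790).

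*Cd4* was the gene whose level differed between KO DP and KO CD8 cells in the limma test, by 5.05 on the log2 scale. It encodes a marker by which these subsets were sorted, so its difference is not an independent result.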

How the results depend on the processing

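The count of 2044 genes (869 higher and 1175 lower in KO DP cells) stayed within 1.5 times of itself with a pseudocount of 10, no filter, a minimum mean of 50, quantile normalization, a common 75th percentile, no trend and edgeR (1740 to 2298). DESeq2 gave 3302 genes (1713 higher), the joint fit of 20 libraries 3541 (1665 higher and 1876 lower) and array weights 3494 (1567 and 1927). Without 1 library the counts ranged from 767 to 3980, with 290 to 1886 higher and 467 to 2094 lower. The upper ends were without KO DP replicate 3, and each WT CD8 library left out gave 811 or fewer. No other left-out library moved the count by over 1.5 times, and the cause was not tested.

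With the replicate block, 517 genes passed (151 higher and 366 lower, 29.2% of them higher, against 42.5%). KO DP and WT CD8 libraries share only the numbers 2 and 3, with r of 0.108 and -0.06 between their deviations, so the block pairs no donors. Between KO DP and KO CD8 cells, DESeq2 called 3 genes and every other alternative 1, the replicate block included.

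Of 85 named genes past the threshold, 60 passed under every alternative that used all libraries apart from the block, 40 passed whichever library was left out, and 33 passed with the block. Without the trend 16 lost their calls. The sign turned in 10 genes, none of which passed where it did. *Tcf7* was at 0.14 with edgeR, 0.14 with DESeq2, 0.20 with array weights and -0.23 to 0.39 without 1 library. With quantile normalization *Gapdh* was at -0.15, *Hsp90ab1* at -0.31, *Hspa8* at -0.46 and *Ldha* at -0.11, and with the block *Jund* was at 0.0185 and *Tbx21* at 0.0107. Without 1 library *Zbtb7b* ranged from -0.260 to 0.0913, *Prf1* from -0.239 to 0.0664, *Hspa8* from -0.00402 to 0.120, *Id2* from -0.0029 to 0.389 and *Jund* from -0.262 to 0.00568. Each group has 4 libraries, and the parts of depth and of the spread between libraries in the precision were not tested.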

Other observations

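Few members of several further gene groups passed the threshold, and for some the count rested on 1 library. Of 18 stem-like and memory genes, *Satb1* rose and none fell, with a median of -0.07, and without KO DP replicate 3, 6 rose and 2 fell. Of 13 effector lineage factors, *Eomes* and *Prdm1* fell, and *Tbx21*, which encodes T-bet (-0.28, adjusted p = 0.318), and *Id2* (0.23, adjusted p = 0.476) did not pass, and without that replicate 4 fell. Among 24 genes of glycolysis and the hypoxia response, 2 rose, *Pdk1*, which diverts pyruvate from the mitochondria (0.69, adjusted p = 0.027), and the glycolytic enzyme *Gpi1* (0.34, adjusted p = 0.0403), while *Ldha* (0.39, adjusted p = 0.293) and *Gapdh* (0.23, adjusted p = 0.296) did not pass. Of 19 genes of the ATF4 stress response, the tRNA synthetase gene *Nars* rose (0.33, adjusted p = 0.025). In the list of Myc and ribosome biogenesis genes, 1 of 24 rose, *Pes1* (0.42, adjusted p = 0.0142), and 2 fell, *Myc* and the nucleolar gene *Gnl3* (-0.65, adjusted p = 0.0251). Each of these calls of *Pdk1*, *Gpi1*, *Nars*, *Pes1* and *Gnl3* was lost without WT CD8 replicate 2, 3 or 6 (adjusted p up to 0.135), those apart from *Pes1* also without replicate 5. Without KO DP replicate 4 *Pdk1* and *Gpi1* did not pass, nor did *Gpi1* without replicate 1 and *Gnl3* without replicate 2. With quantile normalization *Gpi1* was at 0.10 (adjusted p = 0.516). Without KO DP replicate 3 the counts were 2 rises and 2 falls for glycolysis and hypoxia, 3 and 2 among 18 for ATF4, and 3 and 6 for Myc and ribosome biogenesis. The counts with all libraries stand beside the 7.03% of all genes that rose and 9.5% that fell. Those without KO DP replicate 3 stand beside 15.2% and 16.9%.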
